A study of Mus musculus with 2 samples.

Results

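The potassium channel gene family was read here in single cells of the mouse right ventricle. Its members were taken by symbol: every gene whose name starts with Kcn, followed by letters and a number, with at least 50 unique molecular identifiers (UMIs, 1 for each captured transcript) summed over all barcodes. Kcnj8 and Kcnj11, which encode pore subunits of ATP-sensitive channels, were excluded by name. Of 27999 features in the table, 98 symbols matched, 2 of these were the excluded genes, 33 had under 50 UMIs and 63 were members. They comprise 24 voltage-gated pore subunits, 2 silent subunits that modify other pores, 6 inward rectifiers, 8 tandem-pore (two-pore-domain) subunits, 8 calcium- or sodium-activated subunits, 12 accessory subunits and 3 transcripts named for a channel gene that they overlap in antisense (Kcnq1ot1, Kcnd3os and Kcnab3os). These roles were assigned by symbol. The calcium- or sodium-activated group takes all Kcnma, Kcnn, Kcnt and Kcnu genes, so its name need not describe the gating of each, such as Kcnu1.

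The libraries came from C57/BL6J mice whose genotype is given as CBP flox/flox, p300 flox/flox and Trap flox/flox (written trap in library 2). The pups received AAV9, a virus used to carry genes into heart muscle, within 24 h of birth (postnatal day 1) to knock out p300 and CBP, related lysine acetyltransferases, and the right ventricle was taken on postnatal day 21. Genotype, virus and ages are shared by both libraries, which are thus 2 samples of 1 group, and no control is among the samples analysed here. The labels name no promoter or Cre for the virus, do not say what the Trap allele is, and do not give the number of animals in a library. Every comparison below is therefore between cell classes of the same libraries. Its p-values weigh a class difference against how far class differences vary between these 2 libraries, after the overall difference between the libraries is removed. That spread may be technical.

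Potassium channels let potassium leave a cell and so hold or restore its resting voltage. In heart muscle, transient outward and delayed rectifier channels end the action potential, inward rectifiers set the resting voltage, and acetylcholine-gated rectifiers slow the atrium and the pacemaker. In vessels, voltage-gated and calcium-activated channels oppose contraction, and tandem-pore channels give a steady background leak in many cell types. Pore subunits assemble as multimers, often with accessory subunits that change their gating or their transport to the membrane.

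Barcodes numbered 12736 in library 1 and 9447 in library 2, carrying 57982200 and 50199793 UMIs, and the median barcode had 3586 and 3945 UMIs. Mitochondrial transcripts were a median of 0.338% and 0.229% of counts, and 17 barcode sequences occurred in both libraries. After filters, 11842 and 8647 cells were kept and clustered without the Kcn genes, and clusters were named from marker genes ("cardiomyocyte-like" and so on). Cardiomyocyte-like cells were 63.2% of kept cells in library 1 and 25.8% in library 2, and macrophage-like cells 2.15% and 6.09%, although CD45-positive cells were enriched with beads per the protocol. Cells left unnamed, apart from an immune cluster described below, were 12.3% and 3.21%. Their summed cardiomyocyte markers stood at 89.9% and 30.2% of the cardiomyocyte-like level. A cluster of 240 cells led by hepatocyte markers (Alb, Apoa1 and Ttr among them) came from library 1 alone, and its source was not tested. The targeted genes were read in every class: in cardiomyocyte-like cells Ep300 was at 111 and 116 CPM (counts per 1000000 UMIs of that class and library), and Crebbp at 384 and 464 CPM. Reads from the 3' end need not lie in the deleted exons, so these levels do not check the knockout.

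Tests were run on the 7 classes that had 50 or more cells in each library: cardiomyocyte-, fibroblast-, endothelial-, endocardial-, epicardial or mesothelial-, pericyte- and macrophage-like. Levels are compared among these 7 classes unless another class is named. Where levels are said to overlap or not, this describes these libraries, with no test and no share over all genes beside it. All markers of each of these classes had counts in both libraries. Of the 12 cardiomyocyte markers, 10 in library 1 and 12 in library 2 were higher in their own class than in every other tested class. In both libraries this held for 7 of 9 endothelial and 8 of 9 fibroblast markers, and for all markers of the other classes. A class was set against the mean of the 6 others, and a gene was called higher or lower at a Benjamini-Hochberg adjusted p under 0.05 (edgeR's quasi-likelihood test over 16632 genes) and at least a 2-fold difference. For every other class that mean includes cardiomyocyte-like cells, so a gene high in them is drawn toward a lower call elsewhere. Differences below are on the log2 scale, so that 1 is 2-fold. Where a member had no count in some class in both libraries, the fitted fold has no fixed size, and its levels and call are given alone, which left folds for 46 of the 63 members.

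Cardiomyocyte transcripts were also counted in every other class. The summed level of the 12 cardiomyocyte markers was 59193 and 70006 CPM (libraries 1 and 2) in cardiomyocyte-like cells. Across the other tested classes it was 8615 to 20827 CPM in library 1 and 2383 to 8243 CPM in library 2, with no marker at 0. Library 1 thus carried more of this RNA in each of the other classes than library 2. A low level of a heart muscle channel in another class is given below beside this measure, and its part in that level was not tested.

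**Figure D1:**
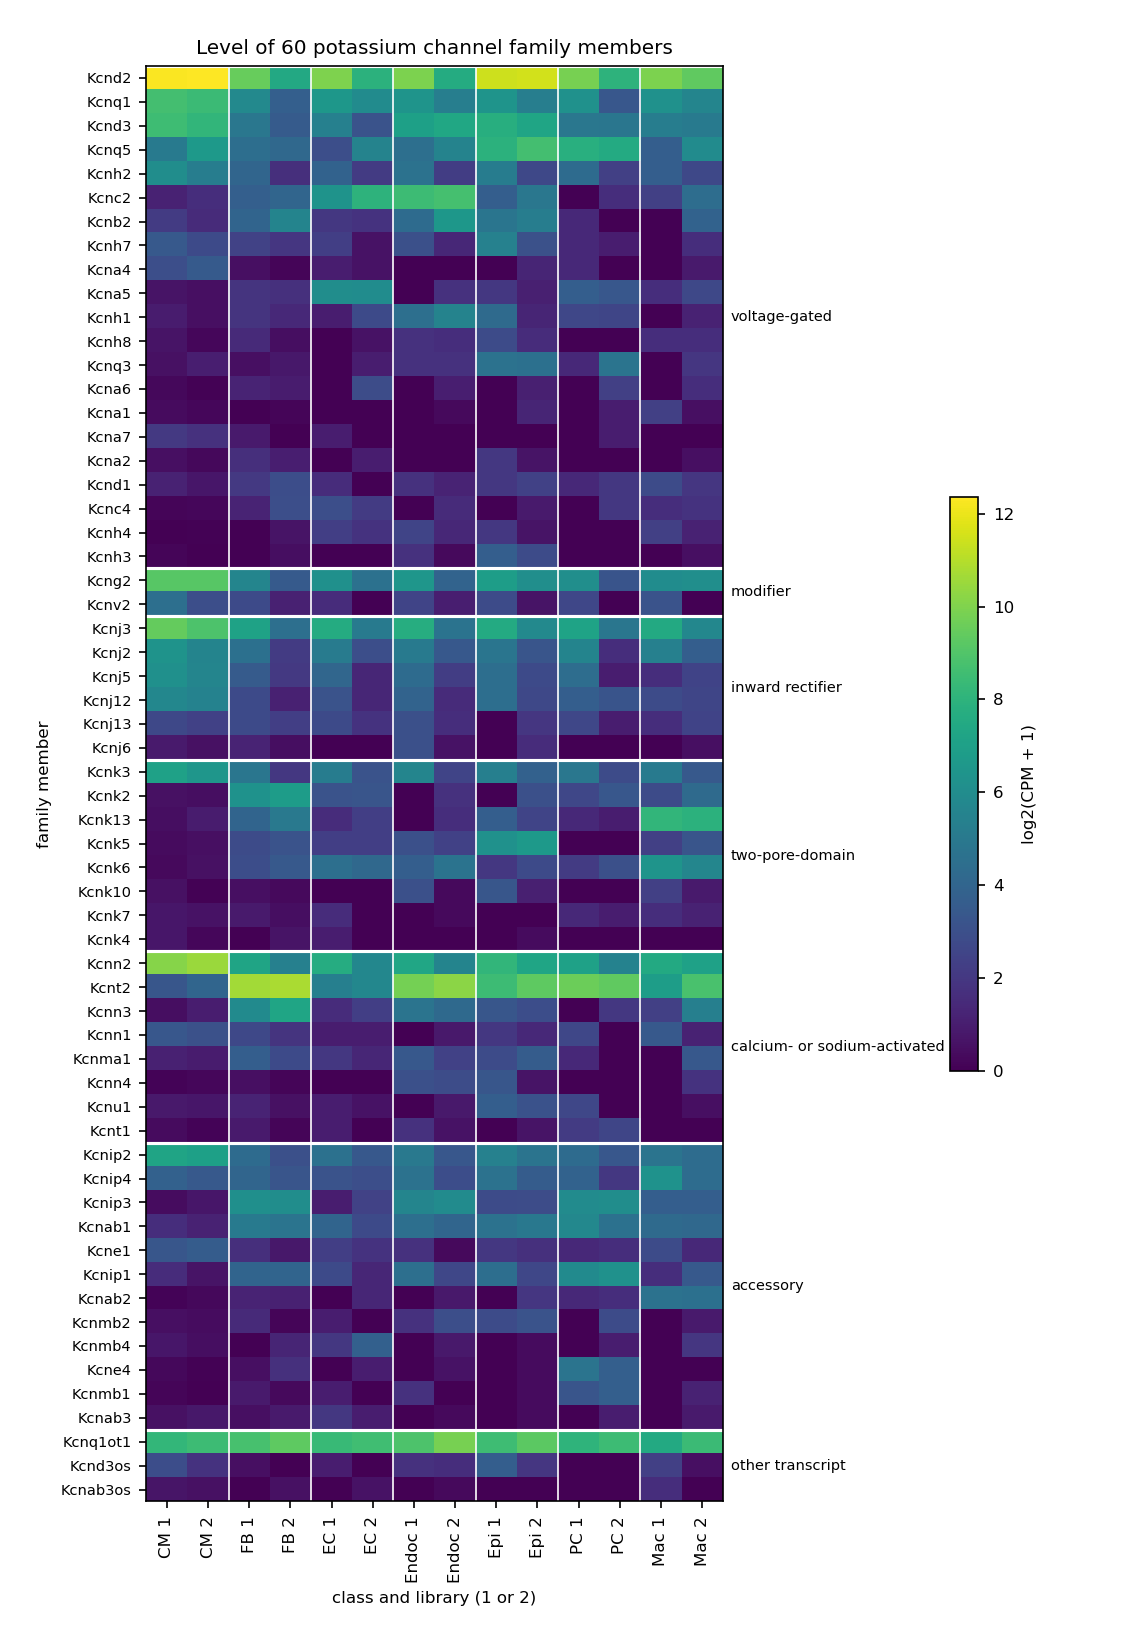
Level of 60 of the 63 members (rows, ordered by role and total count) in the 7 tested classes (columns: CM, cardiomyocyte-like; FB, fibroblast-like; EC, endothelial-like; Endoc, endocardial-like; Epi, epicardial or mesothelial-like; PC, pericyte-like; Mac, macrophage-like) of libraries 1 and 2, as log2(CPM + 1). Kcnd2, Kcnj3, Kcnn2 and Kcng2 are highest in the cardiomyocyte-like columns, and Kcnt2, Kcnc2, Kcnip1 and Kcnk13 in others.

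Every tested class had members called higher. Of the 63 members, 56 (88.9%) were called higher in at least 1 class, beside 55.3% of all genes tested, 34 of them in 1 class, 15 in 2 and 7 in 3 or more. The 7 called higher in no tested class were Kcna1, Kcna6, Kcnab3, Kcnj6, Kcnk4, Kcnk7 and Kcnq1ot1. In cardiomyocyte-like cells 23 members (36.5%) were higher, beside 21.1% of all genes tested, and 15 (23.8%) were lower, beside 19.7% of all genes. Over the 46 members counted in every class the median difference there was 0.07, and over the 14382 genes counted in every class it was 0.07 as well. The summed level of the 63 members was 9348 and 9496 CPM in cardiomyocyte-like cells and 1715 to 5530 CPM in the other tested classes. By role, higher calls in cardiomyocyte-like cells covered 5 of 6 inward rectifiers, 9 of 24 voltage-gated subunits, both modifiers, 1 of 8 tandem-pore subunits, 2 of 8 calcium- or sodium-activated subunits and 2 of 12 accessory subunits. Lower calls covered 5 of 12 accessory, 3 of 8 tandem-pore, 5 of 24 voltage-gated and 2 of 8 calcium- or sodium-activated subunits.

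The transient outward genes Kcnd2, Kcnd3 and Kcnip2 were highest in cardiomyocyte-like cells. Kcnd2, a pore subunit of the fast transient outward current (GRCm38 chromosome 6 from 21215503 to 21729805 on the plus strand), was at 5044 (library 1) and 5289 CPM (library 2) in cardiomyocyte-like cells. Fibroblast-like cells had it at 729.9 and 178 CPM, and the difference of cardiomyocyte-like cells from the others was 3.61 ± 0.29 (SE), adjusted p = 4.49e-09. Kcnd3, the sister pore subunit, was at 372 and 284 CPM in cardiomyocyte-like cells and differed by 3.37. Kcnip2, the calcium-binding accessory subunit of both pores, was at 148 and 131 CPM there, at 19.1 and 7.02 CPM in fibroblast-like and 42.2 and 26.5 CPM in epicardial or mesothelial-like cells, a difference of 3.61 ± 0.16 (SE). All 3 genes lay higher in both libraries of cardiomyocyte-like cells than in any library of another tested class. Kcna4, the pore subunit of the slow transient outward current, was at 6.77 and 10.5 CPM in cardiomyocyte-like cells and at most 1.72 CPM in any other tested class. Kcnd1, the third pore subunit of the Kcnd group, was at 1.24 and 0.683 CPM in cardiomyocyte-like cells and was called higher in fibroblast-like cells, at 3.10 and 6.66 CPM, a difference of 1.46 that was 0.29 without library 2.

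The genes of the slow and rapid delayed rectifiers (Kcnq1, Kcne1 and Kcnh2) were high in the same class. Kcnq1, the pore of the slow delayed rectifier, was at 405 (library 1) and 346 CPM (library 2) in cardiomyocyte-like cells, a difference of 3.58 ± 0.21 (SE), adjusted p = 7.30e-11. Kcne1, its accessory subunit, was at 8.85 and 10.98 CPM there and between 0.262 and 6.08 CPM in the other tested classes (difference 3.12). Kcnh2, the pore of the rapid delayed rectifier, was at 66.2 and 37.3 CPM and differed by 3.17 ± 0.22 (SE). The 3 genes did not overlap between cardiomyocyte-like cells and any other tested class. Kcng2 and Kcnv2, silent subunits that assemble with other voltage-gated pores, were at 573 and 562 CPM and 22.1 and 6.83 CPM in cardiomyocyte-like cells, differences of 4.39 and 3.44. The Kcnv2 level of library 2 lay below that of macrophage-like cells in library 1 (8.10 CPM).

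Further voltage-gated members, the transient outward pore Kcna4 given above among them, were also called higher in cardiomyocyte-like cells. Kcna7, known from heart and skeletal muscle, was at 3.15 and 2.36 CPM and had no count in 3 of the other classes. Kcnh7, a relative of Kcnh2, was at 10.1 and 5.93 CPM and differed by 1.91, but epicardial or mesothelial-like cells lay at 42.2 and 7.48 CPM.

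Among the 6 inward rectifiers, 5 were called higher in cardiomyocyte-like cells. Kcnj2 and Kcnj12, pore subunits of the current that sets the resting voltage of ventricular muscle, were at 80.9 and 46.8 CPM and 52.4 and 44.1 CPM in cardiomyocyte-like cells. Their differences were 2.60 ± 0.22 (SE) and 3.79 ± 0.23 (SE), with adjusted p = 1.01e-08 and 1.15e-10. Kcnj3 and Kcnj5, the partners of the acetylcholine-gated channel, were at 687 and 480.3 CPM and 72.4 and 49.3 CPM, differences of 3.65 ± 0.23 (SE) and 3.70 ± 0.25 (SE). None of the 4 overlapped with another tested class, although Kcnj2 in pericyte-like cells of library 1 came close at 46.5 CPM. Kcnj13, a rectifier of epithelia, was at 5.47 and 4.25 CPM there and 0 to 7.22 CPM in the other classes, which overlapped with it. Its difference of 1.02 fell below 2-fold with other scaling factors and in other clusterings. Kcnj6, a further acetylcholine-gated subunit best known from neurons, was at most 7.22 CPM in all 7 classes and was called in none.

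Sequences upstream of the start site are shown for 3 members whose highest tested class did not overlap with any other: Kcnj3 and Kcnj2, high in cardiomyocyte-like cells, and Kcna5, high in endothelial-like cells. The RefSeq table of GRCm38.p6 had promoter entries for 44 of the 63 members. In the 250 bases before each start, 6 short motifs were searched on both strands. AGGAAG is a core that ETS factors bind, CAGCTG is an E-box for helix-loop-helix factors, and CATTCC is the MCAT element of muscle genes. The others were a binding sequence of cardiac zinc-finger factors (AGATAA), the core promoter element TATAAA and the MEF2 consensus. No motif holds the letters of another, and matches are in capitals, including those on the other strand. The windows read 5' to 3' on the strand of the gene.
Kcnj3, chr2:55435720-55435969, plus strand: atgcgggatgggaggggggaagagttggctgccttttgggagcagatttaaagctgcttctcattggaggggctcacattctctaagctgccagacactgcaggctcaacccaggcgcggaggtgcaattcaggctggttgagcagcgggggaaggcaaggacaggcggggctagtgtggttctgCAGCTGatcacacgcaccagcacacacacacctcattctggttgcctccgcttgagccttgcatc
Kcnj2, chr11:111065914-111066163, plus strand: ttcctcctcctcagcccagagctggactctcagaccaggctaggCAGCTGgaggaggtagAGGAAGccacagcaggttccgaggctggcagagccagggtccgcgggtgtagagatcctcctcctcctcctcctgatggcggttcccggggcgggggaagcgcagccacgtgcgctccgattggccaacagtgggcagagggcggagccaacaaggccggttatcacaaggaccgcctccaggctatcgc
Kcna5, chr6:126535556-126535805, minus strand: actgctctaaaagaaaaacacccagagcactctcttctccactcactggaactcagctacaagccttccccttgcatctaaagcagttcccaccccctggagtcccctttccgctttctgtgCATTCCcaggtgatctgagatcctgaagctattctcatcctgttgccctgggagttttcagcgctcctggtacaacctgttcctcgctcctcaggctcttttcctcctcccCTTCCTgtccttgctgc
The Kcnj3 window holds the E-box letters, the Kcnj2 window those of the E-box and of ETS, and the Kcna5 window those of MCAT and of ETS. Over all 32851 windows in the table, 13% hold CAGCTG, 29.5% AGGAAG and 12.6% CATTCC. Among the 63 windows of the members, some of which share a gene, 27.0% hold CAGCTG, 34.9% AGGAAG and 12.7% CATTCC. A match describes letters only.

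Calcium-activated channels divided by gene. Kcnn2, a small-conductance subunit opened by calcium, was at 1100.4 (library 1) and 1433 CPM (library 2) in cardiomyocyte-like cells, a difference of 4.25 ± 0.24 (SE), adjusted p = 5.04e-11. Kcnn1 was also higher there (9.23 and 7.40 CPM, difference 2.67), although macrophage-like cells of library 1 had 10.1 CPM. Kcnn3, the third gene of that group, was lower in cardiomyocyte-like cells at 0.374 and 0.998 CPM, a difference of -3.31. Kcnma1, the pore of the large-conductance channel, was at 1.19 and 0.945 CPM, which did not pass the test (difference -1.38, adjusted p = 0.0656).

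Tandem-pore genes divided in the same way. Kcnk3, an acid-sensitive background channel, was at 134 (library 1) and 88.6 CPM (library 2) in cardiomyocyte-like cells, a difference of 3.48 ± 0.24 (SE). Kcnk2, a channel opened by stretch, was at 0.467 and 0.368 CPM there, Kcnk6 at 0.234 and 0.473 CPM and Kcnk13 at 0.397 and 0.893 CPM, with differences of -3.73, -4.76 and -3.09. Each of these 3 genes was high in another class. Kcnk4 and Kcnk7 had 51 and 57 UMIs in all and were called in no class.

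The other members called lower in cardiomyocyte-like cells were Kcnt2, Kcnip3, Kcnc2, Kcnab1, Kcnab2, Kcna5, Kcnc4, Kcnip1, Kcnmb1, Kcna6 and Kcnh1. The lowest differences were those of Kcnk6 (-4.76), Kcnip3 (-4.71) and Kcnt2 (-4.64). Kcnip3 belongs to the same accessory group as Kcnip2 and was at 0.350 and 0.683 CPM in cardiomyocyte-like cells. The Kcna6 call rests on library 2: without it the difference was 1.35, in the opposite direction, with no test, and that of Kcnc4 was -0.83. With no library block Kcnmb1 was not called.

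The 3 antisense transcripts were read beside the genes that they overlap. Kcnd3os overlaps the start of Kcnd3 on the other strand and was at 6.56 and 2.52 CPM in cardiomyocyte-like cells, called higher. Kcnab3os lies within Kcnab3 and was at 0.631 and 0.473 CPM, called higher at adjusted p = 0.0448, a call lost under most other settings, while Kcnab3 itself (0.491 and 0.735 CPM) was called in no class. Kcnq1ot1, an imprinted RNA transcribed from within Kcnq1, was at 288 and 352 CPM in cardiomyocyte-like cells and was called in no class. Its largest differences were 0.83 ± 0.16 (SE) in endocardial-like cells (adjusted p = 6.88e-04) and -0.91 ± 0.18 (SE) in macrophage-like cells (adjusted p = 0.00102), both under 2-fold. The labels and headers do not say whether reads were assigned by strand. In the GENCODE annotation 35 of the 63 members overlap a gene on the opposite strand, and reads of such pairs may not be told apart.

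Next, 12 members called higher in cardiomyocyte-like cells, each with at least 2000 UMIs, were read in each other class as a percentage of their cardiomyocyte-like level, beside the 12 marker genes of heart muscle. In fibroblast-like cells these members stood at a median of 14.1% in library 1 and 3.67% in library 2, and the markers at 20.4% and 5.03%. In macrophage-like cells the members stood at 18.1% and 11.7%, and the markers at 27.6% and 15.8%. The median of the members lay below that of the markers in every tested class and library except endocardial-like cells of library 1 (27.1% for the members and 25.8% for the markers), and both medians were lower in library 2. None of the 12 members exceeded all 12 markers in both libraries of a class. In library 1 the highest marker stood at 104% in endocardial-like, 114% in endothelial-like and 129% in epicardial or mesothelial-like cells. A member below its cardiomyocyte-like level could not exceed it in those classes, so the comparison decides nothing there. In library 2 alone, Kcnd3 (58.5%) exceeded the highest marker (29.3%) in endocardial-like cells, and Kcnd2 (56.5%) and Kcnd3 (54.4%) exceeded it (40.8%) in epicardial or mesothelial-like cells.

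**Figure D2:**
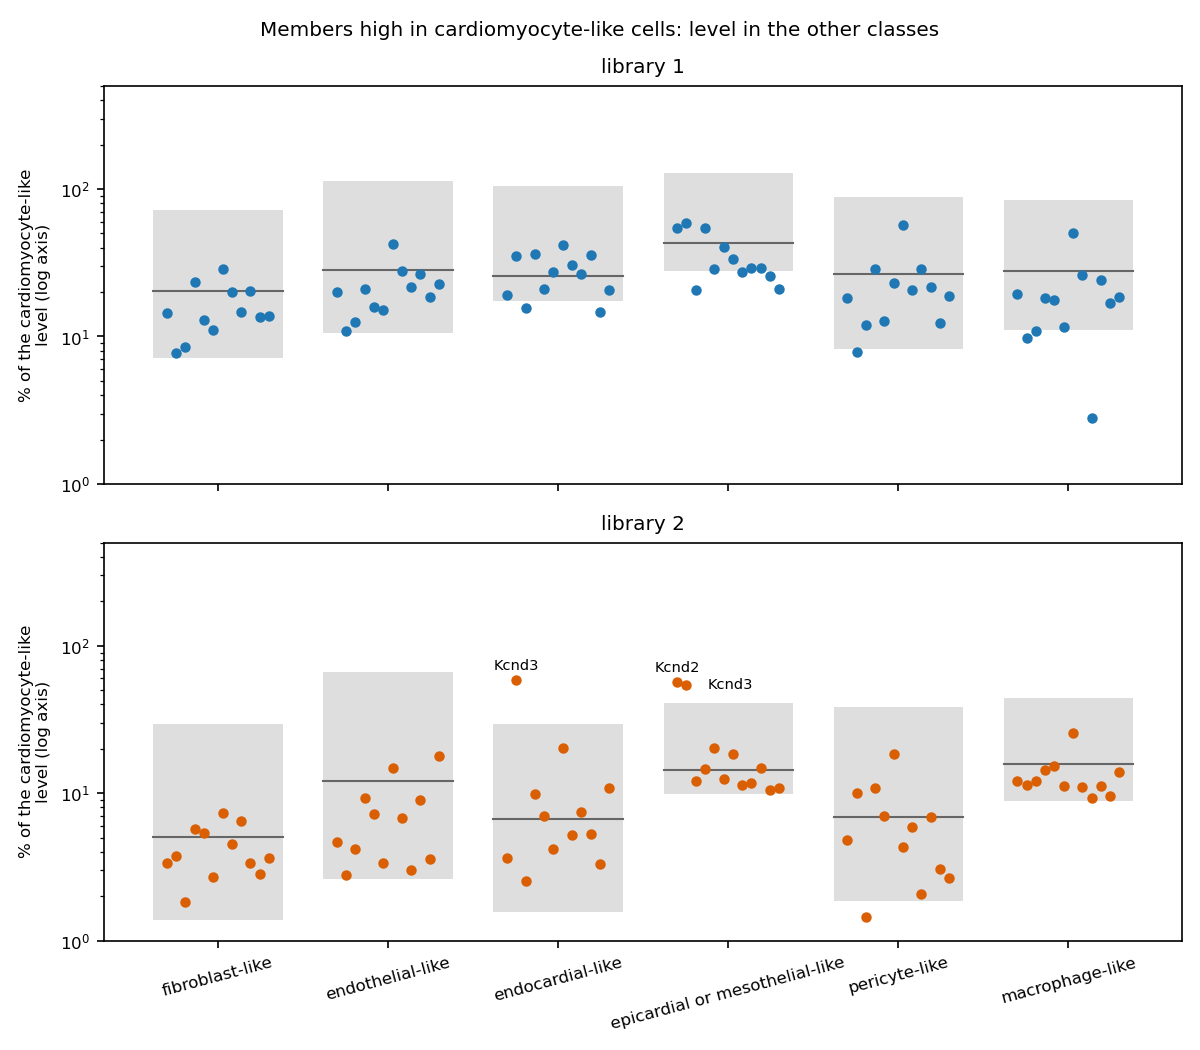
Level of 12 members called higher in cardiomyocyte-like cells (points, 1 per member, with at least 2000 UMIs) in the 6 other tested classes, as a percentage of the cardiomyocyte-like level of the same library on a log axis; the grey band spans the 12 cardiomyocyte markers and the grey line is their median. Named points, Kcnd2 and Kcnd3 in library 2, lie above the band.

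Within cardiomyocyte-like cells the clusters differed in several members; since a library fills each cluster unevenly, these values are a description with no test. Clusters 0 and 1 came mostly from library 1 (3051 of 3432 and 2609 of 2755 cells), and cluster 7 mostly from library 2 (908 of 975 cells). Kcnd2 was at 2485 (library 1) and 3276 CPM (library 2) in cluster 7, against 5564 and 6907 CPM in cluster 2. Kcnip2 was at 76.4 and 83.8 CPM in cluster 7 and between 144 and 168 CPM in clusters 0, 1 and 2. Kcnd2 and Kcnip2 were thus both lower in cluster 7 in each library, whereas Kcnq1 (313 and 327 CPM in cluster 7, 419.7 and 368 CPM in cluster 2) differed less. GFP, a feature of the table, was among the 10 leading genes of cluster 7. Kcnq5, a subunit of the muscarine-sensitive current, differed by library instead: it was at 26.2, 26.95 and 45.98 CPM in clusters 0, 1 and 2 of library 1 and at 111, 123 and 133 CPM in those of library 2.

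One further cluster in the class carried all 8 atrial markers, among them Nppa, Sln and Myl7, and had 85 cells in library 1 and 7 in library 2. There Kcnj3 was at 4449 CPM in library 1, where the other cardiomyocyte-like clusters had 384 to 789 CPM. Kcnj5 was at 110.0 CPM beside 54.2 to 73.7 CPM, and Kcnh7 at 344 CPM beside 4.97 to 9.85 CPM. The acetylcholine-gated subunits and Kcnh7 were thus highest in the cells with atrial markers, while Kcnd2 (1817 CPM) was lowest there and Kcnip2 (71.02 CPM) was near its level in cluster 7. Without this cluster, all 125 calls of the members described here, over the 7 classes, were the same.

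**Figure D3:**
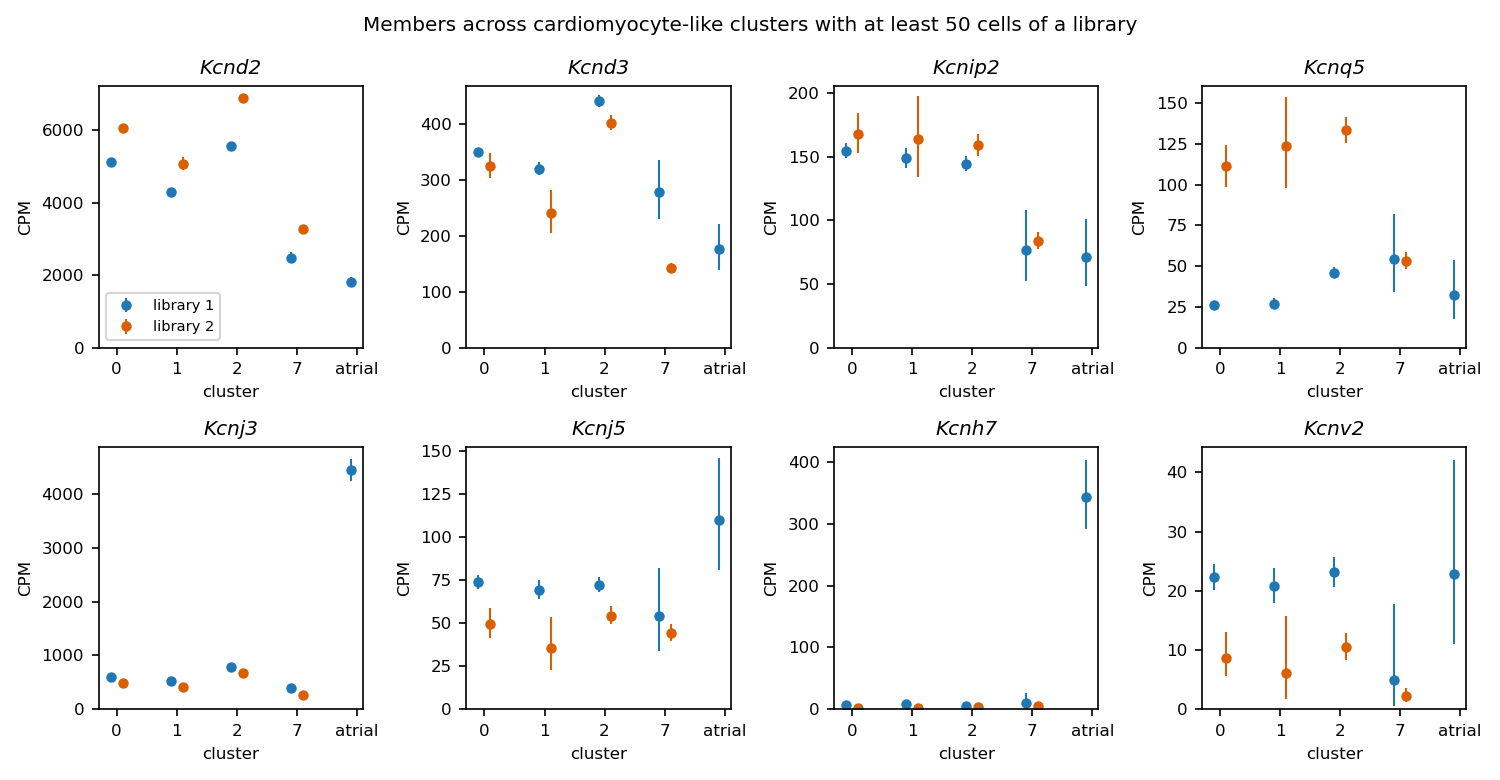
Levels of 8 members (CPM) in the clusters of cardiomyocyte-like cells with at least 50 cells of a library; bars are 95% Poisson intervals, which cover counting error only. Kcnj3, Kcnj5 and Kcnh7 are highest in the atrial cluster of library 1, Kcnd2 and Kcnip2 are lower in cluster 7 than in clusters 0, 1 and 2, and Kcnq5 is higher in library 2 in clusters 0, 1 and 2.

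Fibroblast-like cells had the highest levels among the tested classes of a sodium-activated, a stretch-activated and a calcium-activated gene. In this class 13 members (20.6%) were higher, beside 10.4% of all genes, and 14 (22.2%) lower, beside 7.26%. Kcnt2, a pore subunit opened by sodium (GRCm38 chromosome 1 from 140246158 to 140612067 on the plus strand), was at 1629 (library 1) and 1757 CPM (library 2), a difference of 3.05 ± 0.20 (SE), adjusted p = 7.09e-10. Endocardial-like cells (883 and 1192 CPM) and pericyte-like cells (764 and 651 CPM) were next, cardiomyocyte-like cells had 8.90 and 15.5 CPM, and both libraries of fibroblast-like cells lay above all of these. Kcnk2 was at 78.5 and 112 CPM in fibroblast-like cells and at most 18.6 CPM in any other tested class, a difference of 4.47 ± 0.19 (SE). Kcnn3 was at 59.4 and 155 CPM, again above every other tested class, a difference of 4.48 ± 0.23 (SE), though library 2 had over 2 times the level of library 1. Lymphatic endothelial-like cells, which were too few for the test, had Kcnn3 still higher, at 133 and 195 CPM.

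Kcnip3, which also acts as a calcium-binding repressor of transcription, was about as high in fibroblast-like (70.1 and 65.1 CPM), pericyte-like (61.98 and 66.02 CPM) and endocardial-like cells (48.1 and 61.3 CPM), with differences of 2.87, 2.83 and 2.61. The remaining higher calls in fibroblast-like cells included Kcnk13 (14.6 and 31.2 CPM, difference 2.38), Kcnb2 (2.13), Kcnc4 (1.79), Kcnd1 (1.46), Kcnma1 (1.34), Kcnab1 (1.04), Kcnk5 (6.21 and 7.97 CPM) and Kcna2 (2.22 and 1.07 CPM). Kcnab1, a beta subunit of the Kcna pores, was higher in pericyte-like (53.4 and 23.4 CPM) and epicardial or mesothelial-like cells (24.1 and 29.6 CPM) as well, and these overlapped with fibroblast-like cells (33.7 and 26.3 CPM). Of the 14 lower calls, 12 were genes called higher in cardiomyocyte-like cells, and the other 2 were Kcnq5 (-2.10) and Kcnq3 (-2.41). The 12 ran from -2.25 for Kcnd3 to -1.08 for Kcnh2, with -1.84 for Kcnj12, -1.65 for Kcnd2 and -1.28 for Kcnn2. Because the mean of the others includes cardiomyocyte-like cells, this overlap is partly built in. A lower call does not make fibroblast-like cells the lowest class. Fibroblast-like cells also had the lowest share of cardiomyocyte marker RNA of the tested classes, 14.6% and 3.40% of the cardiomyocyte-like level, and its part in the lower calls was not tested. With no library block 3 members were lower in place of 14, and Kcna2, Kcnd1 and Kcnma1 were not called higher. With doublets kept, 5 of the 14 lower calls remained, and Kcna2 and Kcnab1 were not called higher. With DESeq2 in place of edgeR, Kcna2, Kcnc4, Kcnd1 and Kcnma1 were not called higher. Without library 2 the differences of Kcnq5, Kcnq3, Kcnh2, Kcnj2, Kcnj3, Kcnk3 and Kcnn2 lay between -0.94 and -0.69.

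Endothelial-like cells had the highest levels among the tested classes of the delayed rectifier Kcna5 and, on few counts in library 1, of the beta subunit Kcnmb4. In this class 7 members (11.1%) were higher, beside 9.4% of all genes, and 5 (7.94%) lower, beside 6.96%. Kcna5 (GRCm38 chromosome 6 from 126532551 to 126535412 on the minus strand), the pore of the ultrarapid delayed rectifier and a channel of vessels, was at 66.99 (library 1) and 64.6 CPM (library 2) and at most 12.1 CPM in any other tested class, a difference of 4.76 ± 0.23 (SE), adjusted p = 9.20e-12. Kcnc2, a fast delayed rectifier of neurons, was at 79.8 (library 1) and 252 CPM (library 2), a difference of 3.68. The libraries lay close together for Kcna5, whereas Kcnc2 differed by over 3-fold between them.

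Kcnmb4, a beta subunit of the large-conductance channel, was at 2.96 and 12.9 CPM in endothelial-like cells and at most 2.90 CPM in any other tested class, a difference of 3.55. The 2.96 CPM of library 1 is the level that 3 counts give there, so library 1 alone does not set Kcnmb4 apart beyond counting error. With edgeR's count filter (filterByExpr), Kcnmb4 and Kcnh4 were not among the higher calls. Kcnk6, a background channel, was at 21.7 and 16.9 CPM (1.40), Kcnc4 at 6.90 and 3.48 CPM (1.97) and Kcnh4 at 3.94 and 2.48 CPM, from 4 and 5 UMIs. Of these, Kcnk6, Kcnc4 and Kcnh4 overlapped with other tested classes. Lower calls included Kcnt2 (-2.98), Kcnip3 (-2.17), Kcnd3 (-1.88) and Kcnq5 (-1.41). Kcnt2 thus stood at 39.4 and 52.6 CPM in endothelial-like cells and 883 and 1192 CPM in endocardial-like cells, the inner lining of the heart. With no library block Kcnc4 and Kcnq5 were not called, and without library 1 Kcnq5 was at -0.95.

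Endocardial-like cells had the highest level of Kcnc2 among the tested classes. In this class 10 members (15.9%) were higher, beside 8.31% of all genes, and 5 (7.94%) lower, beside 4.93%. Kcnc2 was at 358 (library 1) and 416 CPM (library 2), above every other tested class, a difference of 5.18 ± 0.20 (SE), adjusted p = 7.64e-13. Kcnh1, a voltage-gated channel best known from brain, was at 21.7 and 45.3 CPM and differed by 4.10 ± 0.42 (SE), with epicardial or mesothelial-like cells of library 1 within counting error of the lower value (18.1 CPM). Kcnb2 was at 19.2 and 93.3 CPM (3.36), Kcnt2 differed by 2.23, Kcnip3 by 2.61 and Kcnmb2, a beta subunit, by 2.43. Kcnk6 (1.64), Kcnd3 (1.56, at 129.9 and 166 CPM) and Kcnn3 (1.33) were also called. Kcnn4, the intermediate-conductance calcium-activated channel, was at 7.22 and 6.29 CPM, from 3 and 24 UMIs. All of these but Kcnc2 and Kcnh1 overlapped with another tested class. Lower calls included Kcnk2 (-2.10), Kcnk13 (-1.97), Kcnd2 (-1.28) and Kcnn2 (-1.12). None of these 4 lower calls, nor the higher calls of Kcnmb2 and Kcnn3, was made with no library block, which left 1 lower call in place of 5. Without library 2 the differences were -0.65 for Kcnd2, -0.69 for Kcnn2, 0.86 for Kcnd3 and 0.98 for Kcnk6, and without library 1 that of Kcnn3 was 0.93. With doublets kept, Kcnd3 was not called higher, and Kcnk2 and Kcnn2 were not called lower. Library 1 had 140 endocardial-like cells, in which 3 counts are 7.22 CPM, so that a count of 0 there allows up to that level.

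Epicardial or mesothelial-like cells had higher levels of the transient outward genes Kcnd2 and Kcnd3 and of several Kcnq and Kcnk genes. In this class 15 members (23.8%) were higher, beside 13.3% of all genes, and 3 (4.76%) lower, beside 4.98%. Kcnd2 was at 2744 (library 1) and 2989 CPM (library 2), below cardiomyocyte-like cells and above the other 5 classes in both libraries, a difference of 1.90 ± 0.32 (SE), adjusted p = 1.61e-04. Kcnd3 was at 217 and 154 CPM, a difference of 1.65. With doublets kept, Kcnd2, Kcnd3 and Kcnd3os were not called higher in this class. The summed cardiomyocyte markers in this class were 35.2% of the cardiomyocyte-like level in library 1 and 11.6% in library 2, while Kcnd2 was at 54.4% and 56.5%. Single markers ranged from 27.9% to 129% in library 1 and from 9.84% to 40.8% in library 2, and the part of this RNA in the Kcnd2 level was not tested. Kcnip2, the accessory subunit, did not pass the test there (42.2 and 26.5 CPM, difference 0.47).

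Kcnk5, an alkali-activated background channel, was at 75.4 and 98.4 CPM in epicardial or mesothelial-like cells and at most 8.70 CPM in any other tested class. Kcnq5 was at 247 and 404 CPM, above pericyte-like cells (226 and 187 CPM), a difference of 2.66 ± 0.27 (SE). In library 1 the Kcnq5 levels of these classes were within counting error of each other. Kcnq3, which assembles with Kcnq5, was at 24.1 and 22.4 CPM (3.51), with one library of pericyte-like cells as high (1.72 and 26.4 CPM). Kcnu1, known as a channel of sperm, was at 12.1 and 7.77 CPM (3.42), and Kcnh3 at 12.1 and 6.04 CPM, both above every other tested class. The remaining higher calls were Kcnmb2 (2.74), Kcnh7 (2.36), Kcnb2 (2.01), Kcnma1 (1.80), Kcnab1 (1.09), Kcnk10 (9.04 and 1.15 CPM), Kcnh8 (6.03 and 2.01 CPM) and Kcnd3os (12.1 and 2.88 CPM). Lower calls included Kcna5 (-1.86) and Kcnip3 (-1.25). Library 1 had 65 of these cells, in which 3 counts are 9.04 CPM, and without library 2 Kcna5 turned to 0.18, Kcnab1 was at 0.43 and Kcnip3 at -0.83. With no library block, 9 members were higher in place of 15, and the 6 no longer called were Kcnd2, Kcnma1, Kcnab1, Kcnk10, Kcnh8 and Kcnd3os.

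Pericyte-like cells had the highest levels of Kcnip1, Kcnmb1, Kcne4 and Kcnt1 among the tested classes. In this class 11 members (17.5%) were higher, beside 7.06% of all genes, and 7 (11.1%) lower, beside 5.54%. Kcnip1 was at 60.3 (library 1) and 76.2 CPM (library 2), a difference of 3.55 ± 0.37 (SE), adjusted p = 8.78e-07, and at most 21.7 CPM in any other tested class. Kcnmb1, a beta subunit known from smooth muscle, was at 8.61 and 12.2 CPM (4.93). Because Kcnmb1 lies inside Kcnip1 on the opposite strand, these 2 calls may share reads.

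Kcne4, an accessory subunit of Kcnq and Kcna pores, was at 25.8 and 12.2 CPM in pericyte-like cells and at most 2.26 CPM in any other tested class. Kcnt1, the relative of Kcnt2, was at 3.44 and 5.08 CPM, from 2 and 5 UMIs, and both genes were above every other tested class in both libraries. Kcnq3 (3.11), Kcnip3 (2.83), Kcnq5 (2.10), Kcnt2 (1.65), Kcna5 (1.60) and Kcnab1 (1.38) were also higher but overlapped with other tested classes. Lower calls included Kcnc2 (-4.56, from 2 UMIs over both libraries), Kcnb2 (-4.39, from 1 UMI), Kcnd3 (-1.31), Kcnn2 (-1.27), Kcnq1 (-1.18) and Kcnk5, which had no count in either library. The sizes of the Kcnc2 and Kcnb2 folds thus rest on very few counts. With doublets kept, Kcnn2 and Kcnq1 turned to 0.10 and 0.13, Kcnb2 and Kcnd3 were not called lower, and Kcna5 and Kcnab1 were not called higher. With no library block 3 members were lower in place of 7, without Kcnb2, Kcnd3, Kcnn2 and Kcnq1. The calls of Kcnb2 and Kcnq1 were also lost with other scaling factors, edgeR's count filter, a stricter cell filter and both other resolutions. The differences of Kcnn2 and Kcnq1 were -0.97 and -0.48 without library 2, and that of Kcnd3 was -0.90 without library 1.

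Macrophage-like cells had the highest levels among the tested classes of 2 tandem-pore genes and a beta subunit. In this class 6 members (9.52%) were higher, beside 9.95% of all genes, and 2 (3.17%) lower, beside 3.45%. Kcnk13, a background channel that is also expressed by microglia, the macrophages of the brain (GRCm38 chromosome 12 from 99964499 to 100062682 on the plus strand), was at 286 (library 1) and 247 CPM (library 2). The next class was fibroblast-like, at 14.6 and 31.2 CPM, and the difference of macrophage-like cells was 6.34 ± 0.22 (SE), adjusted p = 6.22e-14. Kcnk6 was at 83.03 and 50.1 CPM, a difference of 3.20 ± 0.27 (SE), and Kcnab2, a beta subunit, at 24.3 and 22.8 CPM, a difference of 4.45 ± 0.41 (SE). These 3 genes lay above every other tested class in both libraries.

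Kcnip4 was at 76.95 (library 1) and 19.5 CPM (library 2) in macrophage-like cells (1.64), the second within the range of other classes. Kcnk2 (6.08 and 18.6 CPM, difference 1.16) and Kcnn3 (4.05 and 39.4 CPM, difference 1.92) were called as well. Fibroblast markers summed to 1582 and 3197 CPM in macrophage-like cells and to 14668 and 17373 CPM in fibroblast-like cells. One macrophage-like cluster of 196 cells, 177 of them from library 2, carried fibroblast markers too. Without it, Kcnk2 and Kcnn3 turned to -0.60 and -0.73 and were not called. Lower calls included Kcnd3 (-1.13). With no library block Kcnk2 and Kcnd3 were not called, Kcnd3 was at -0.87 without library 1 and Kcnn3 at 0.21 without library 2.

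**Figure D4:**
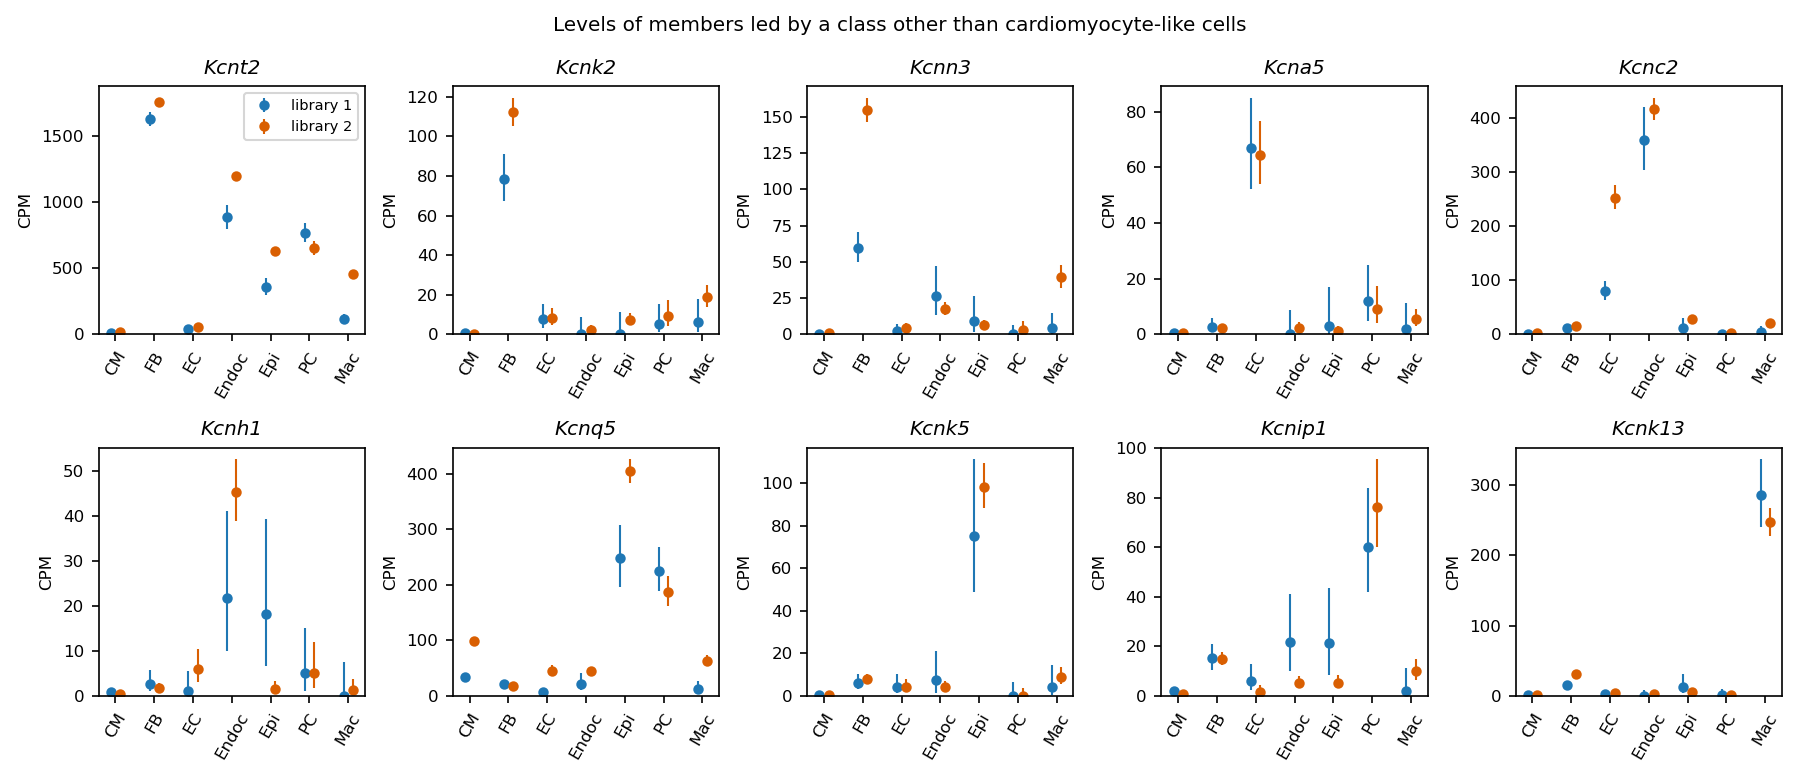
Levels (CPM) of 10 members led by a class other than cardiomyocyte-like cells, in the 7 tested classes (abbreviations as in the heat map) of library 1 (blue) and library 2 (orange); bars are 95% Poisson intervals, which cover counting error only. Each panel has 1 class above the others, such as Kcnk13 in macrophage-like cells and Kcnip1 in pericyte-like cells. In library 1, Kcnh1 and Kcnq5 had a second class within counting error of the highest.

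A pair of lists of genes that work with these channels were read in cardiomyocyte-like cells. Of 30 partner genes, which anchor, modify or regulate channel subunits, 28 could be tested, and 15 were higher and 3 lower, beside 21.1% and 19.7% of all genes. Their median difference was 1.48, beside 0.12 for all genes. Over the 26 counted in every class it was 1.20, beside 0.07 for all genes counted in every class. The list was chosen with earlier results of these data known, so these counts are a description. Lrrc52, an auxiliary subunit of large-conductance channels, was called higher and had no count in 3 classes. Among genes counted in every class the largest differences were those of Fhl2 (4.09), a LIM-domain protein that binds the Kcne1 product, and Actn2 (3.96), which is also a cardiomyocyte marker used to name the class. Popdc3 (3.85), Bves (3.77) and Popdc2 (3.26), of the Popeye family that binds tandem-pore channels, were higher as well. The lower genes were Dlg2 (-3.01), a scaffold protein, Lrrc55 (-2.46) and Pias3 (-1.24). Of 15 potassium transport genes 14 could be tested, and 7 were higher and 2 lower, with a median difference of 1.08. Tmem38a, a channel of the sarcoplasmic reticulum, differed by 2.83, and Fxyd1, the regulator of the sodium pump in heart, by 2.24. Slc12a2, a sodium-potassium-chloride cotransporter, and Atp1b2 were lower, at -1.56 and -1.40.

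Classes with under 50 cells in a library were not tested, and their levels are a description. Genes of the Kcna group were high in 34 and 53 Schwann or glial-like cells. There Kcna1, Kcna2 and Kcna6, pore subunits of axonal and glial delayed rectifiers, lay between 367 and 799 CPM over both libraries, whereas no tested class exceeded 6.46 CPM for any of the 3. In 54 and 22 smooth muscle-like cells Kcnab1 was at 1214 and 1834 CPM and Kcnma1 at 652 and 709.8 CPM, each far above the pericyte-like level of 53.4 and 23.4 CPM and 1.72 and 0 CPM. Kcna1 and Kcna6, called higher in no tested class, thus had their highest levels in Schwann or glial-like cells. Kcna2, called in fibroblast-like cells at 2.22 and 1.07 CPM, was also highest there.

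**Figure D5:**
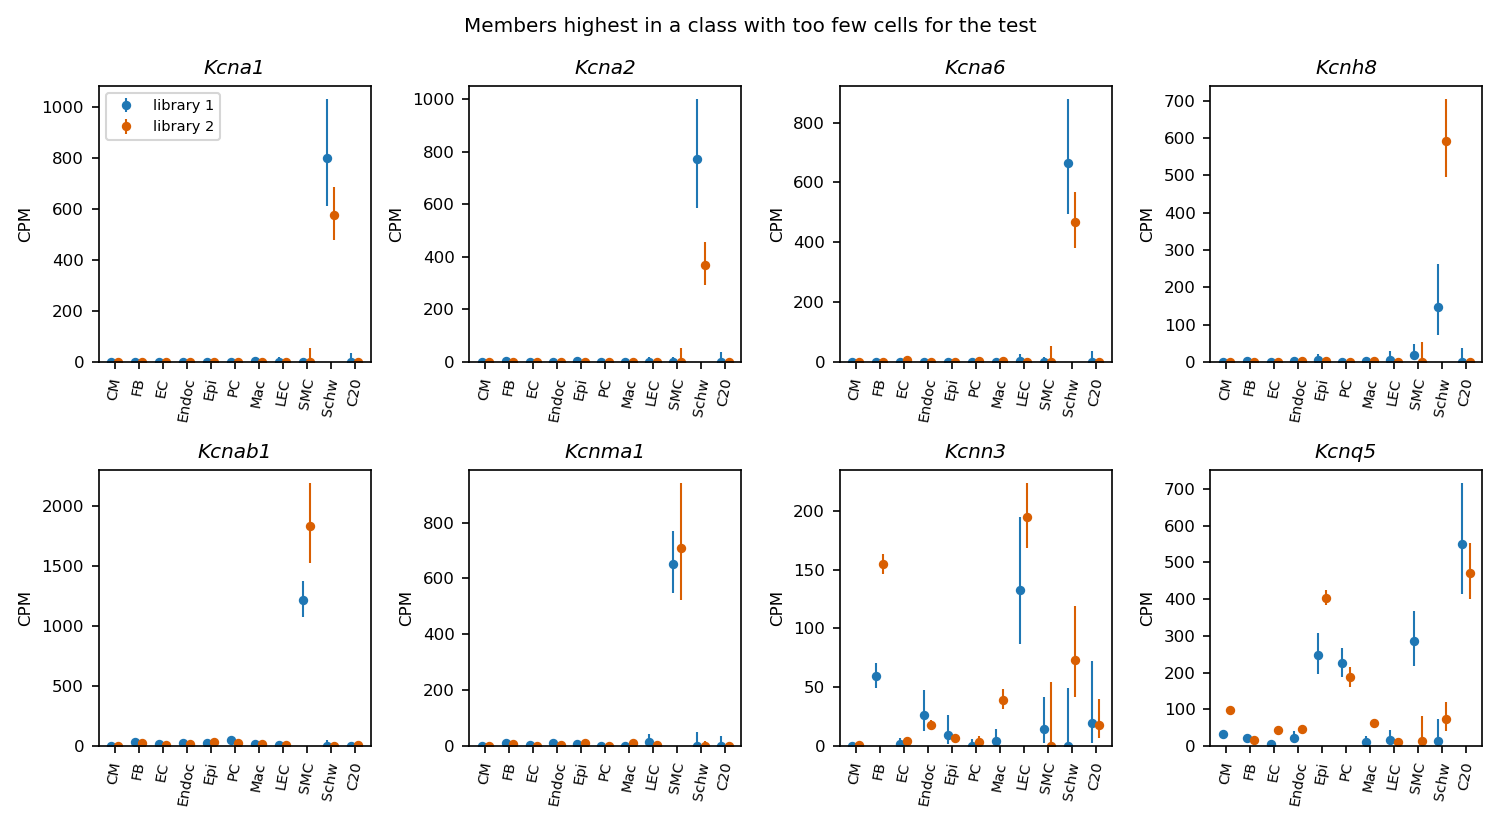
Levels (CPM) of 8 members in the 7 tested classes (abbreviations as in the heat map) and in classes with too few cells for the test (LEC, lymphatic endothelial-like; SMC, smooth muscle-like; Schw, Schwann or glial-like; C20, an immune cluster left unnamed), in library 1 (blue) and library 2 (orange); bars are 95% Poisson intervals, which cover counting error only. Kcna1, Kcna2, Kcna6 and Kcnh8 are highest in Schwann or glial-like cells, Kcnab1 and Kcnma1 in smooth muscle-like cells, Kcnn3 in lymphatic endothelial-like cells and Kcnq5 in the unnamed immune cluster.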

How the data were processed

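UMI counts per gene and barcode of both libraries were deposited by the authors as 1 table, made with Cell Ranger 6.0.0 per the file headers on GRCm38 (mm10) per the submitters' processing notes, from 10x 3' (version 3) reads per the labels' protocols. Those notes also name fastp, Trimmomatic, Seurat and edgeR, with no role. The barcode suffix (1 or 2) was matched to the sample title.

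Barcodes with at least 500 UMIs and 200 genes and at most 25% mitochondrial counts were kept (22137 of 22183). Of these, 1648 were removed as doublets or as members of clusters with at least 40% doublets (a nearest-neighbour score against 2 simulated doublets per cell marked 5.84% and 6.29% of barcodes). The remaining 20489 cells were clustered with leidenalg 0.10.2 (resolution 1, 2000 variable genes, 30 components, 15 neighbours, no library correction), without 143 channel and partner genes. Of 25 clusters, 7 stayed unnamed. The cluster with atrial markers was counted as cardiomyocyte-like. Names from marker lists were scored by a rule set after the data were seen, and shares rest on these rebuilt names.

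Counts were summed per class and library (14 sums) and fitted with edgeR 4.0.16 (quasi-likelihood, TMM factors 0.696 to 1.17, library as a block, 6 residual degrees of freedom), which was tested on simulated data. The library number pairs the sums, since the classes of 1 library were captured together. All members entered the counts and nearly all were described (a few genes are not reported here), and a gene was named where it was a member, or a partner or transport gene among the largest changes. The members and lists were chosen with earlier results of these data known. Positions were matched by gene ID to GENCODE M21. Poisson intervals (95%) and the level of 3 counts cover counting error only.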

Additional observations from a re-analysis of the deposited data

Results flagged for a closer look

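Several members had their highest level in classes that entered no comparison, in both libraries and above the level that 3 counts give there. Intervals are 95% Poisson intervals, which cover counting error only. In Schwann or glial-like cells (34 in library 1 and 53 in library 2) Kcna1 was at 799 CPM (610.0 to 1029) in library 1 and 574 CPM (478 to 684) in library 2. Kcna2 was at 773 CPM (587 to 999) and 367 CPM (291 to 457), and Kcna6 at 666 CPM (494 to 878) and 468 CPM (382 to 569). Kcnh8 was at 147 CPM (73.2 to 262) and 592 CPM (495 to 704), so that its intervals did not meet between the libraries.

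In smooth muscle-like cells (54 and 22) Kcnab1 was at 1214 CPM (1069 to 1372) and 1834 CPM (1525 to 2186), and Kcnma1 at 652 CPM (547 to 771) and 709.8 CPM (523 to 941). In lymphatic endothelial-like cells (49 and 191) Kcnn3 was at 133 CPM (86.8 to 195) and 195 CPM (168 to 224), with fibroblast-like cells next at 59.4 and 155 CPM. In an immune cluster of 39 and 95 cells, left unnamed because its leading genes include those of neutrophils (S100a8, S100a9 and Retnlg) and of lymphocytes (Skap1, Il7r, Lef1 and Ms4a4b), Kcnq5 was at 549.8 CPM (414 to 716) and 472 CPM (400.5 to 552). Kcnn4 was at 39.98 CPM (10.9 to 102) and 51.8 CPM (30.1 to 82.9) there, from 4 and 17 UMIs. The Kcnn4 interval of library 1 reaches below the level that 3 counts give in that cluster.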

How the results depend on the processing

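The 125 calls of members described individually, and the counts over all 63, were recomputed under 15 other settings, of which the scaling factors, count filters, DESeq2, cell filter, doublets, resolutions, atrial cluster, block and left-out libraries were planned, and the macrophage cluster, lymphatic class and gene list counts were added after seeing the data. Of the member values 1673 kept their call, 171 kept only their direction and 6 turned. These counts include the settings with a single library, where a kept call is only a 2-fold difference in the same direction, with no test. Such values numbered 121 of 125 without library 1 and 105 without library 2. Leaving out the atrial cluster changed none of these calls. With no replicate block (no pairing by library) the members higher in epicardial or mesothelial-like cells numbered 9 in place of 15, and no other count of higher calls, nor that of lower calls in cardiomyocyte-like cells, moved by over 1.5 times. With no scaling factor 5 partner genes were lower in cardiomyocyte-like cells in place of 3, while the median of all genes there moved by -0.58.

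With a single library left there is no test, and members past 2-fold numbered 25 to 30 (higher) and 16 to 24 (lower) in cardiomyocyte-like, 14 to 21 in endocardial-like, 11 to 15 in endothelial-like, 21 to 22 in epicardial or mesothelial-like, 20 to 21 in fibroblast-like, 15 to 16 in macrophage-like and 17 to 18 in pericyte-like cells. Partner genes past 2-fold were 15 higher and 2 to 4 lower. Leaving out library 1 moved 39 of the 125 called values by over 1.5-fold, and leaving out library 2 moved 67. Without library 2, Kcna6 in cardiomyocyte-like cells turned to 1.35 (-3.55 without library 1) and Kcna5 in epicardial or mesothelial-like cells to 0.18 (-2.02 without library 1). The values that fell under 2-fold without library 2 were Kcnc4 in cardiomyocyte-like cells (-0.83), 4 in endocardial-like cells (Kcnd2 -0.65, Kcnd3 0.86, Kcnk6 0.98, Kcnn2 -0.69), 2 in epicardial or mesothelial-like cells (Kcnab1 0.43, Kcnip3 -0.83), 8 in fibroblast-like cells (-0.94 to 0.29), Kcnn3 in macrophage-like cells (0.21) and 2 in pericyte-like cells (Kcnn2 -0.97, Kcnq1 -0.48). Without library 1 they were Kcnn3 in endocardial-like cells (0.93), Kcnq5 in endothelial-like cells (-0.95), Kcnd3 in macrophage-like cells (-0.87) and Kcnd3 in pericyte-like cells (-0.90).

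Without the macrophage-like cluster with fibroblast markers, Kcnk2 and Kcnn3 turned to -0.60 and -0.73, and with doublets kept Kcnn2 and Kcnq1 in pericyte-like cells turned to 0.10 and 0.13; the cause was not tested. Counts of lower calls over the tested alternatives ran from 3 to 15 in fibroblast-like, 1 to 8 in endocardial-like, 4 to 8 in endothelial-like, 1 to 3 in epicardial or mesothelial-like, 0 to 7 in macrophage-like and 3 to 12 in pericyte-like cells. Resolution 2 gave no epicardial or mesothelial-like value. Depth limits the small classes most: 3 counts are 9.04 CPM in epicardial or mesothelial-like and 7.22 CPM in endocardial-like cells of library 1.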
